A study of Mus musculus with 46 samples.

Results

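The comparison concerned the last step of the conversion of fibroblasts from mouse embryos (MEFs) into induced pluripotent stem cells (iPSCs), from cells sorted as SSEA-1-positive on day 16 (D16S+) to fully reprogrammed iPSCs, and it asked where the histone variant H3.3 was found in established iPSCs but not yet in D16S+ cells. Its members were the H3.3 ChIP-Seq libraries of these cells, 2 of the 46 samples of the series, and the 81542 placed peaks of the iPSC list with the 33972 of the D16S+ list. An iPSC peak was called iPSC-only when no D16S+ peak overlapped it by 1 bp or more, and shared otherwise, so that 60971 peaks were iPSC-only and 20571 were shared.

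MEFs carrying an IRES-EGFP cassette behind the stop codon of the endogenous Oct4 (Pou5f1) gene were infected with pMXs retroviruses for Oct4, Sox2, Klf4 and c-Myc. They were kept in feeder-free medium with LIF, ascorbic acid, bFGF and CHIR99021. D16S+ cells were selected by a surface antigen of pluripotent cells and not passaged, whereas iPSCs were listed as fully reprogrammed and were not sorted. The factor-infected fibroblasts of D3, the fractions D6T-, D9T- and D12S+ (sorted as Thy-1-negative or SSEA-1-positive), the unsuccessful fractions (D6T+, D9T+, D12S-, D16S-), uninfected D0 fibroblasts and ESD3, a line of mouse embryonic stem cells, served as reference lists. By the labels the iPSCs and ESD3 were also grown in the feeder-free medium, whereas the methods name serum or serum-replacement media with LIF for such lines. Each of these 12 groups was 1 H3.3 library, and how many iPSC lines the iPSC library held is not given in the sources used here, so that differences between the libraries cannot be set against a spread between replicates and no test between them was made. Since the cells were analysed in bulk, more cells carrying H3.3 at a locus and more H3.3 per cell cannot be told apart.

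H3.3 differs from canonical H3 by a few residues and is made throughout the cell cycle. The HIRA complex places it at active genes and regulatory elements, and DAXX with ATRX places it at heterochromatin such as telomeres and retroelements. Because H3.3 replaces nucleosomes that transcription and factor binding turn over, its peaks mark promoters, gene bodies and distal elements in use. Pluripotency rests on a network of transcription factors around Oct4, Sox2 and Nanog, and the late members of this network become active only at the end of reprogramming.

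The libraries differed in depth and in enrichment, and the comparison was therefore made with all peaks and again with the 33972 highest-scoring peaks of each list. The D16S+ library held 18.7 M tags with 4.88% of them in peaks, and the iPSC library held 41.2 M tags with 13.96% in peaks. The ESD3 library held 21.6 M tags with 7.4% in peaks. The score of a peak was its normalised tag count, scaled to 10 M tags per library and not divided by length, so that 1 tag was worth 0.533 in D16S+ and 0.243 in iPSCs. The fold over input went the other way, with medians of 4.87 and 4.25 in D16S+-only and shared D16S+ peaks against 3.26 and 3.24 in iPSC-only and shared iPSC peaks. A peak that was not called is not a locus without tags, and no fold was computed against such a locus. All intervals are 95% intervals of counting error only, since reads without molecular identifiers are not independent molecules and neighbouring peaks are not independent observations.

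To show what such regions look like, the central 300 bp of 3 iPSC-only and 3 shared intergenic peaks were read from the mm9 genome. They were taken from high-scoring intergenic iPSC peaks that also overlapped an ESD3 peak and overlapped no peak of any other reprogramming library. These peaks had an input near the median and held a motif of a pluripotency factor. Each window was also cut into consecutive, non-overlapping stretches of 20 bp, each of which had to occur only once in the genome. Stretches across these cuts were not checked. Of the first 60 candidates by score, 6 iPSC-only peaks (of 328 candidates) and 4 shared peaks (of 124) met this limit. The printed regions need therefore not be the highest-scoring candidates. Capitals mark an exact match on either strand to ATTTGCAT (the octamer bound by Oct4), CATTGTT (Sox2), CCACACCC (Klf4) or TCAAGGTCA (Esrrb). The iPSC-only regions lay at chr4:135661838-135662137, 37.4 kb from the start site of Id3 (score of the whole peak 45.6), at chr5:120064922-120065221, 55.6 kb from that of Tbx3 (33.8), and at chr2:164764268-164764567, 1.86 kb from that of Mmp9 (31.6). The shared regions lay at chr4:147566829-147567128, 32.2 kb from Fbxo2 (37.7 in iPSCs and 7.47 in D16S+), at chr4:120694474-120694773, 4.77 kb from Smap2 (25 and 8.8), and at chr5:120029999-120030298, 90.5 kb from Tbx3 (24.3 and 7.2). All 6 are printed from the plus strand.
iPSC-only 1: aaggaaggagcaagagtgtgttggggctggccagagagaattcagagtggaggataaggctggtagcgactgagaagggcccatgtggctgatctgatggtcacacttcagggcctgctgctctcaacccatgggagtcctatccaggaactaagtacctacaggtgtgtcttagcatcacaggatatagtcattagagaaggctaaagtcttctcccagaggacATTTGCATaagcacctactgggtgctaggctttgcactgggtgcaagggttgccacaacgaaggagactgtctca
iPSC-only 2: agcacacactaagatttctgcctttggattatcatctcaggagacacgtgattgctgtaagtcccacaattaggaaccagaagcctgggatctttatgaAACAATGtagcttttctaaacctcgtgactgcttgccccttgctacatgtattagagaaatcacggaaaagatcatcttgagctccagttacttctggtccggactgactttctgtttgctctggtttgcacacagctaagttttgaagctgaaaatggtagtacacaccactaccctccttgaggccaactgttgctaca
iPSC-only 3: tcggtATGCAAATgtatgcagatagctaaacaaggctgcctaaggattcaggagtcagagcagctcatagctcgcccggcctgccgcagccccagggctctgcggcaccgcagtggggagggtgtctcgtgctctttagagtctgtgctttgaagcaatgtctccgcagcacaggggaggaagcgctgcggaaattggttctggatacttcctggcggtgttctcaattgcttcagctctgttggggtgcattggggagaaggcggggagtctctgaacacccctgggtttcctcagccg
shared 1: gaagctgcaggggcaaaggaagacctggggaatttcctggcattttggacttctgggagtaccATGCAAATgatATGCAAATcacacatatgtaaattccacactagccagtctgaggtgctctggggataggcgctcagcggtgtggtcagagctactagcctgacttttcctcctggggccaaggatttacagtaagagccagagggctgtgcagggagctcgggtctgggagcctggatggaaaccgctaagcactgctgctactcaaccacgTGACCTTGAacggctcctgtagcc
shared 2: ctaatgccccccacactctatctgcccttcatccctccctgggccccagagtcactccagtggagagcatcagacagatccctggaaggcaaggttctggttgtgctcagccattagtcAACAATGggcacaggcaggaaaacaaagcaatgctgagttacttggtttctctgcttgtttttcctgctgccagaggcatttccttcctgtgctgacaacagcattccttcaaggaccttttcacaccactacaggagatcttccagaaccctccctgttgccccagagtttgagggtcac
shared 3: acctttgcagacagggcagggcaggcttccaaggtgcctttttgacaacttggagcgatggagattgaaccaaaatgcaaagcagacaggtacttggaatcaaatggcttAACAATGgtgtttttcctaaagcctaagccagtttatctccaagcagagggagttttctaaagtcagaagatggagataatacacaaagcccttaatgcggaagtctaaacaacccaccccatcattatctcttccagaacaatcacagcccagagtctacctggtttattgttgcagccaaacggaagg
The Tbx3 neighbourhood, which belongs to a naive pluripotency factor, thus held a region of each class. The printed regions were chosen for holding such a match. Of all 31422 windows of 300 bp at intergenic iPSC peaks, 2.92% held the octamer and 4.16% the Sox2 motif. The Klf4 motif was held by 3.63% and the Esrrb motif by 0.996%.

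Most iPSC peaks had no counterpart in D16S+ cells, whereas most D16S+ peaks had one in iPSCs. The iPSC-only share was 74.8% (Wilson interval 74.5 to 75.1) of 81542 iPSC peaks, and the D16S+-only share was 31.1% (30.6 to 31.5) of 33972 D16S+ peaks. With equal numbers of top peaks the asymmetry was smaller, with 53.5% (53.0 to 54.0) of the iPSC peaks and 44.4% of the D16S+ peaks unmatched. The peak caller set 13 tags per window as its limit in D16S+, worth a score of 6.93, although the lowest score in that list was 5.33, and 25104 iPSC-only peaks (41.2%) scored below that level, against 8.64% of the shared peaks. Among autosomes the iPSC-only share ran from 72.5% on chromosome 3 to 77.5% on chromosome 16.

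The higher an iPSC peak scored, the more often it had a D16S+ peak. The score is not divided by length, and long peaks overlap others more readily. The share with a D16S+ peak was 5.60% in the lowest quintile of the iPSC score and 65.6% in the highest, and with equal numbers it ran from 23.3% to 81.8%. The median iPSC-only peak scored 7.90 over 653 bp, and the median shared peak scored 23.9 over 1792 bp. Per kilobase the classes lay close together, at 11.5 and 12.9 tags per 10 M. The 10550 D16S+-only peaks were short and low, with a median length of 500 bp and a median score of 7.47.

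**Figure D1:**
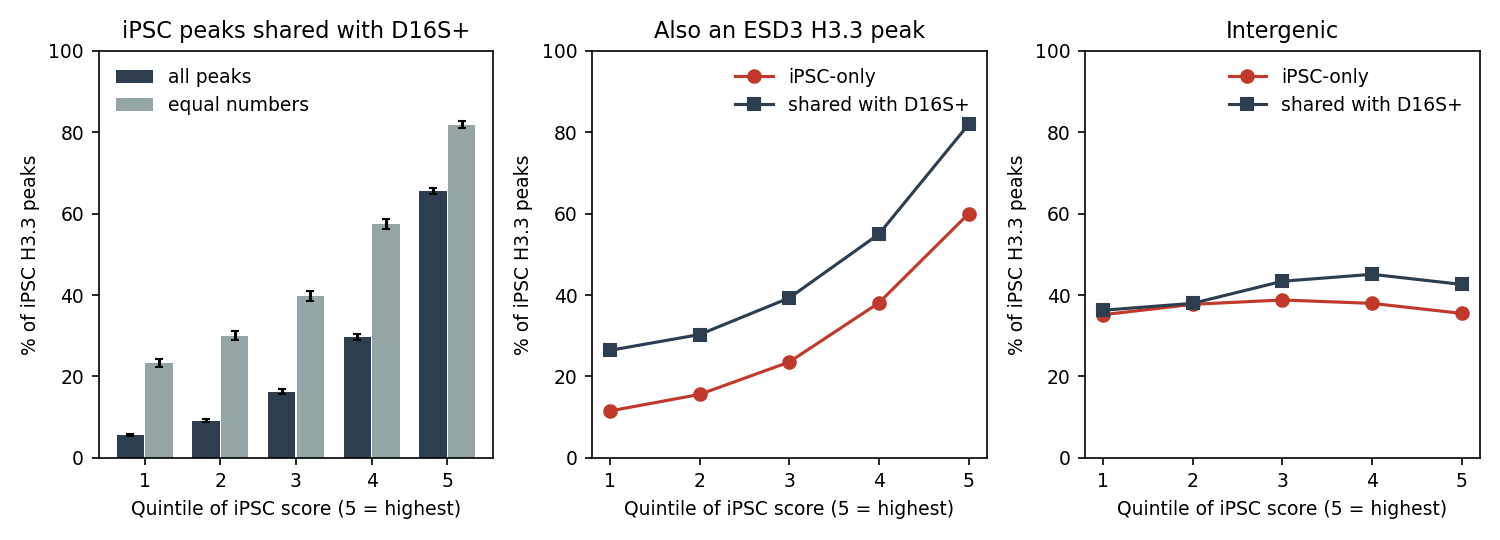
The left panel gives the percent of iPSC H3.3 peaks that overlapped a D16S+ peak in each quintile of the iPSC score (bars, with 95% Wilson intervals), for all peaks and for equal numbers. The other panels give, for iPSC-only and shared peaks of each quintile, the percent that overlapped an ESD3 peak and the percent that was intergenic. The shared share climbs from 5.60% to 65.6%, the ESD3 share of iPSC-only peaks lies below that of shared peaks in all 5 quintiles, and the intergenic shares part only in the upper 3.

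Regions present in both libraries were broader in iPSCs. The 20571 shared iPSC peaks were a median of 1.88 times as long as the D16S+ peaks they overlapped and scored 1.60 times as high, but their score per kilobase was 0.820 times that in D16S+ and was higher in iPSCs at 12.98% of them. With equal numbers the ratios were 2.37, 1.97 and 0.830. An iPSC peak joined 2 or more D16S+ peaks in 12.6% of cases. The broader peaks came from the deeper library, and the part of depth in their length was not tested.

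iPSC-only peaks lay near D16S+ peaks. Of the 60971, 52.9% were within 10 kb of a D16S+ peak, while 16.0% of the placed genome was. Of the 38324 genic iPSC-only peaks, 28618 (74.7%) were assigned to genes that already carried gene-body H3.3 in D16S+, and these genes made up 52.9% of the summed length of protein-coding genes. Additions to genes with H3.3 thus outnumbered peaks in genes without it.

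Introns held 49.4% of iPSC-only peaks and 37.8% of shared peaks, and promoters, where shared peaks were relatively more frequent, held 5.64% and 9.71%. Intergenic sequence held 37.1% of iPSC-only and 42.7% of shared peaks, a difference of -5.52 points (Newcombe interval -6.30 to -4.74). In the lower 2 quintiles of the score the intergenic difference was -1.09 (-4.35 to 2.06) and -0.25 (-2.86 to 2.31) points, and in the upper 2 it was -7.14 (-8.80 to -5.48) and -7.11 (-8.67 to -5.54). The D16S+-only peaks resembled the iPSC-only peaks in position, with 49.1% in introns and 35.0% between genes.

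The reference lists, which did not define the classes, showed where else the iPSC-only peaks had been called. Shared peaks overlapped an ESD3 H3.3 peak in 63.9% of cases and iPSC-only peaks in 24.7%, a difference of -39.2 points (-40.0 to -38.5). With equal numbers the values were 65.8% and 34.4%. Since long peaks overlap others more readily, the difference was repeated within quintiles of the score, where it was smaller, from -14.7 to -21.9 points, and its interval lay below 0 in all 5. D12S+, the SSEA-1-positive fraction of day 12, overlapped 63.8% of shared and 19.08% of iPSC-only peaks when all peaks were used, and 65.6% and 28.1% with equal numbers.

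Much of the iPSC-only H3.3 had been called before. Of the iPSC-only peaks, 54.0% (53.6 to 54.4) overlapped a peak of D0, D3, D6T-, D9T- or D12S+, a further 5.77% overlapped none of these but a peak of an unsuccessful fraction, and 7.21% (4393 peaks) overlapped neither but a peak of ESD3. The remaining 20161 peaks (33.1%) were called in iPSCs and in no other library of reprogramming cells or ESD3. For shared peaks these shares were 82.0, 2.35, 7.37 and 8.27%. By single list, D0 fibroblasts overlapped 30.1% and D6T- cells 33.3% of iPSC-only peaks, both more than ESD3, and the unsuccessful D12S- fraction overlapped 37.4%. With equal numbers the order differed, with 25.1% for D0, 28.1% for D12S+, 30.3% for D6T-, 34.4% for ESD3 and 34.4% for D12S-. Lists of different length entered these shares when all peaks were used: 89614 peaks in D0 and 87427 in D12S- against 52413 in ESD3.

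**Figure D2:**
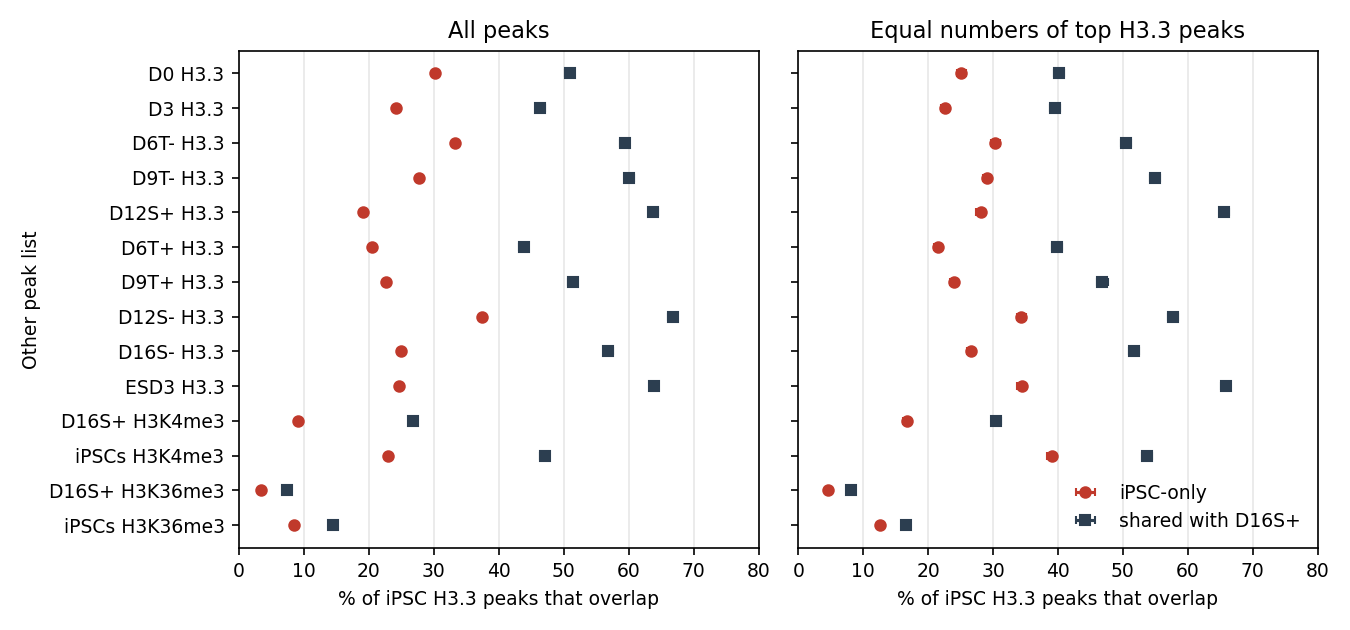
Percent of iPSC-only (circles) and shared (squares) iPSC H3.3 peaks that overlapped each other peak list by 1 bp or more, with 95% Wilson intervals, for all peaks (left) and equal numbers of top H3.3 peaks (right). Shared peaks lie to the right for every list, and with equal numbers ESD3 and D12S- are level for iPSC-only peaks at 34.4%.

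H3K4me3, which marks promoters and some active enhancers, followed the same order. An iPSC H3K4me3 peak overlapped 22.9% of iPSC-only and 47.0% of shared H3.3 peaks (difference -24.2 points, -24.9 to -23.4), and in D16S+ cells H3K4me3 overlapped 9.10% and 26.8% of the same regions. The difference in iPSCs lay between -3.96 and -10.4 points within quintiles of the score. H3K36me3, a mark of transcribed gene bodies, overlapped 8.50% of iPSC-only and 14.5% of shared peaks in iPSCs (-6.00 points, -6.54 to -5.48), but its difference was 1.76 points (0.76 to 2.72) in the fourth quintile and -3.11 (-4.34 to -1.85) in the highest. The direction for H3K36me3 therefore depended on the score of the peaks compared.

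With all peaks, no motif of a pluripotency factor was more frequent in iPSC-only than in shared peaks beyond counting error. In windows of 500 bp at intergenic peaks the octamer was found in 4.28% of iPSC-only and 5.44% of shared peaks, a difference of -1.16 points (-1.71 to -0.63), which was -0.26 (-1.0 to 0.49) with equal numbers. In windows 5 kb to either side without peaks its share was 4.33% beside iPSC-only and 3.57% beside shared peaks. The Sox2 motif was found in 7.06% and 7.05%, below the 10.2% and 9.80% of its flanks. The Klf4 motif was found in 5.77% and 5.66%, against 3.52% and 3.55% in the flanks, and the Esrrb motif in 1.66% and 1.91%, against 1.24% and 1.303%. Under other limits the Sox2 difference was 1.36 points (0.070 to 2.48) among peaks at 4 times the input or more, and the Klf4 difference was 0.999 points (0.23 to 1.69) with at least 0.5 of the iPSC peak covered. TGANTCA, the site of AP-1, a factor of fibroblasts and stress, was found in 15.3% and 16.7%, against 14.0% and 14.7%. Peak windows were richer in G and C than the flanks (47.3% and 46.8% against 43.6% and 43.1%), and the part of base composition in these shares was not tested.

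At the level of genes, far more carried H3.3 only in iPSCs than only in D16S+. Of 22359 protein-coding genes, 9053 were bound in D16S+ and 13161 in iPSCs, where bound means at least 1 promoter or gene-body peak assigned by the nearest start site. They fell into 4758 bound only in iPSCs (21.3%), 8403 bound in both (37.6%) and 650 bound only in D16S+ (2.91%). With equal numbers of peaks the counts were close, with 2203 (9.85%), 6915 (30.9%) and 2138 (9.56%). Gene-body H3.3 in ESD3 was found for 58.0% (56.6 to 59.4) of genes bound only in iPSCs, 86.3% of those in both, 42.0% of those only in D16S+ and 9.67% of those in neither. Of the 4758 genes, 88.1% had been bound in an earlier library of the route. For genes bound in both this share was 98.5%, and for those only in D16S+ it was 88.3%. In D12S+ 49.2% of the 4758 were bound, beside 86.8% of genes bound in both and 47.4% of all genes. The 566 genes not bound in any earlier library of the route, 458 of which were not bound in an unsuccessful fraction either, were the part that first appeared in iPSCs.

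The promoters of these genes often carried H3K4me3 in D16S+ cells, in which the genes counted as not bound by H3.3. An H3K4me3 peak lay at the promoter of 54.0% of genes bound only in iPSCs in D16S+ cells and of 79.3% in iPSCs. For genes bound in both the shares were 72.2% and 91.0%, and for genes bound in neither 15.2% and 29.4%. The iPSC H3K4me3 list was also the larger one, with 36028 peaks from 35.4 M tags against 19566 from 15.8 M. Among the 8403 genes bound in both, the median summed score was 18.9 in D16S+ and 54.6 in iPSCs (median ratio 2.54, higher in 86.2%), and the covered length was 1208 and 4373 bp (ratio 3.23). With equal numbers the ratios were 2.19 and 2.71. A gene in the pluripotency network is therefore read below against a background in which the score over a locus was a median of 2.66 times as high in iPSCs (7688 genes with peaks over the gene and 1 kb around it in both).

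The labels were checked against marker genes. The counts stand beside 40.5% of all genes bound in D16S+, 58.9% in iPSCs and 49.7% in ESD3. Of 15 pluripotency markers, 13 were bound in D16S+, 15 in iPSCs, 14 in ESD3 and 4 in D0. Of 14 fibroblast markers, 3 were bound in D16S+ and 4 in iPSCs, against 13 in D0, and the summed score over their loci was 27.5, 67.5 and 8329. With equal numbers no fibroblast marker was bound in iPSCs. Trophectoderm markers were bound in 2 and 4 of 5, primitive endoderm markers in 1 and 1 of 6 and blood markers in 1 and 2 of 5, in D16S+ and iPSCs. Of the 14 loci, 11 in D16S+ and 9 in iPSCs had no peak at all, Postn and Thy1 among them in both.

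Of the 21 naive pluripotency transcription factors, 18 were bound in D16S+ and 19 in iPSCs (18 in each with equal numbers, a share of 85.7%, Wilson interval 65.4 to 95.02), beside 40.5% and 58.9% of all genes. The unsuccessful D16S- fraction had 16 of them. When peaks were given to the gene that holds their midpoint, 13 were bound in D16S+ and 17 in iPSCs. Values below are locus scores, the summed score of all peaks over the gene and 1 kb to either side, in tags per 10 M. Tags outside called peaks do not enter them, and the intervals of their ratios do not cover tags lost in this way. Of the 21, 18 had a higher locus score in iPSCs and 2 a lower one. Over the 19 with locus peaks in both libraries the median ratio was 2.59, and 89.5% scored higher in iPSCs. For all 7688 genes with locus peaks in both, these values were 2.66 and 89.3%. The naive factors differed among themselves by more than their counting error.

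Nanog, the factor at the centre of the network, had a locus score in D16S+ not far below that in iPSCs, with peaks over 8.84 and 15.2 kb. Its locus score was 120.9 in D12S+, 177.3 in D16S+, 218.2 in iPSCs and 250 in ESD3, after 0 in D0, and the ratio of iPSCs to D16S+ was 1.23 (1.09 to 1.40). Sox2, the partner of Oct4, stood at 36.8 in D16S+, 61.7 in iPSCs and 35.9 in ESD3. Mycn, a Myc family gene of pluripotent cells, stood at 50.7, 54.3 and 43.7, with a ratio of 1.07 (0.84 to 1.37). All 3 ratios lay below the 2.66 of all genes, and so did their intervals.

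A group of naive factors had little H3.3 in D16S+ and much more in iPSCs. Klf5, a Kruppel-like factor of self-renewal, had a locus score of 6.4 in D16S+, 140.1 in iPSCs and 70.5 in ESD3, a ratio of 21.9 (12.4 to 42.6), after 31.8 in D12S+. Zfp42 (Rex1), a classic marker of naive cells, had no peak in any earlier library of the route, and its score was 11.7 in D16S+, 99.4 in iPSCs and 147.0 in ESD3 (ratio 8.49, 5.52 to 13.7). Gbx2, a homeobox gene downstream of LIF and Stat3, stood at 8.0, 52.3 and 27.5, although its peaks were assigned to another gene by the start-site rule. Both Klf5 and Zfp42 lay beyond the background ratio by their whole interval of counting error. Each rested on 1 D16S+ peak, of 0.5 kb for Klf5 and 0.633 kb for Zfp42. The promoter of Zfp42, a naive locus first called in D16S+, is shown as the 250 bp before the start site on the strand of the gene (chr8:44392364-44392613, minus strand).
Zfp42 promoter: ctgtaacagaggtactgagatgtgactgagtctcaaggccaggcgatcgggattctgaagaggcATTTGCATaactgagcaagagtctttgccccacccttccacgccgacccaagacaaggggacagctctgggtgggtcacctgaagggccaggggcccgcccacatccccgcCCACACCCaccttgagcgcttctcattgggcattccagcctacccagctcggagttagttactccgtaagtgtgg
A D16S+ peak and an iPSC peak overlapped this promoter window. Its capitals mark the octamer ATTTGCAT and the Klf4 motif CCACACCC, which occur in 1.62% and 3.25% of all 22362 promoter windows of this length.

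Prdm14, a repressor of differentiation in naive cells, stood at 6.93 in D16S+, 41.6 in iPSCs and 12.5 in ESD3. Nr5a2, a nuclear receptor that can replace Oct4 in reprogramming, stood at 34.1, 178.9 and 117.3 (ratio 5.24, 4.05 to 6.87). Sall4, a zinc-finger partner of Oct4, stood at 59.1, 306.4 and 148.8 (5.18, 4.26 to 6.34), after 152.0 in D12S+. The Prdm14, Nr5a2 and Sall4 scores were thus lower in ESD3 than in iPSCs. ESD3 peaks covered 48.3 Mb in all against 106.7 Mb for iPSCs, and no ratio of these libraries over all genes was computed.

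Esrrb, an orphan nuclear receptor of naive cells, already had 182.4 in D16S+ and stood at 570.8 in iPSCs and 556.5 in ESD3 (ratio 3.13, 2.79 to 3.51). Tfcp2l1, which acts with Esrrb downstream of LIF, stood at 47.4, 149.7 and 192.6 (3.16, 2.52 to 3.98). Both had no peak or a lower score in the unsuccessful D16S- fraction, 0 for Esrrb and 20.3 for Tfcp2l1, but the unsuccessful D12S- fraction had 87.8 for Tfcp2l1, above its D16S+ score. Tbx3 stood at 64.5, 112.2 and 112.4. In these loci iPSCs and ESD3 were close to each other.

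Klf4 was the naive factor bound only in iPSCs. Its locus score was 52.2 in D12S+, it had no peak in D16S+, the only one of the 12 libraries without one, and the score was 63.4 in iPSCs and 26.4 in ESD3. Klf2 stood at 53.4 and 41.4 (0.78, 0.60 to 1.00), with no peak in ESD3. Of the remaining members, Zfp281, Tcea3, Stat3 and Myc had ratios between 2.02 and 3.71, and Nr0b1 had no peak in either library.

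Pou5f1, which encodes Oct4, is set apart because its input was high. Its locus score was 2841.4 in D16S+ and 5742.4 in iPSCs against 178.3 in ESD3, but the input density over its peaks was 36.01 and 28.2 times the median of the list, against 1.23 in ESD3, and its fold over input was 2.26, 2.59 and 4.33. Less the input, the scores were 1584 and 3525, and the part of the high input in what remained was not tested. Over the other delivered factors the input density in iPSCs was 1.01 (Sox2), 1.59 (Klf4) and 2.17 (Myc) times the median.

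**Figure D3:**
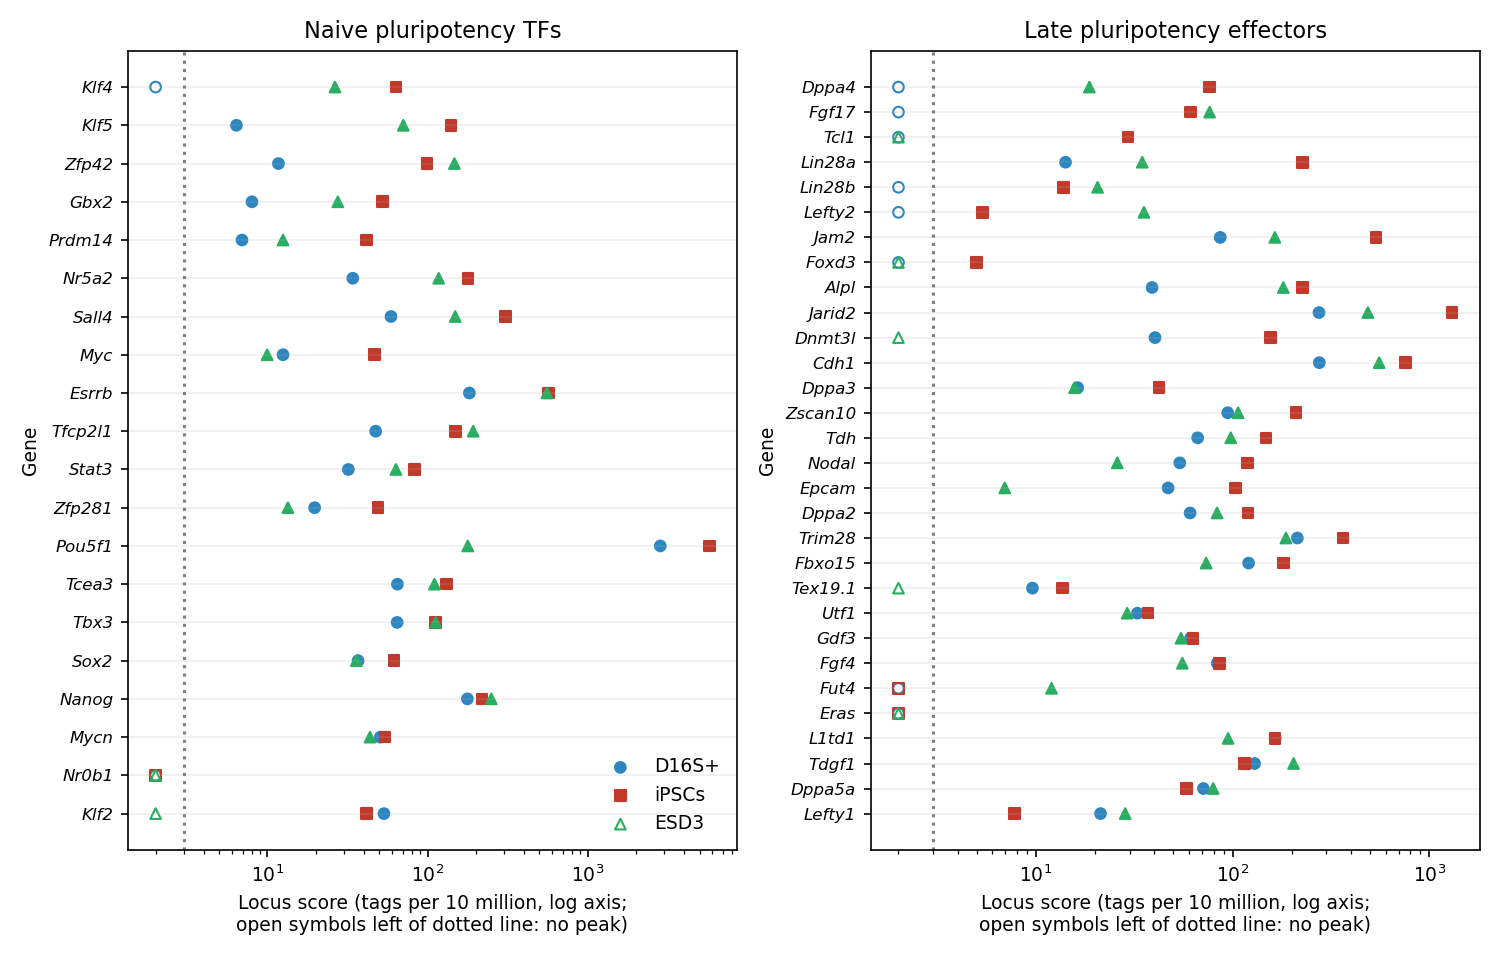
Locus scores (tags per 10 M, log axis) of the naive factors named here (left) and the late effectors (right) in D16S+ (circles), iPSCs (squares) and ESD3 (triangles), 1 library each, ordered by the ratio of iPSCs to D16S+. Open symbols left of the dotted line mark loci without a peak. Klf5, Zfp42 and Lin28a show wide gaps between D16S+ and iPSCs, and Nanog, Mycn, Tdgf1 and Fgf4 narrow ones.

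The 30 late pluripotency effectors, genes that act downstream of the network, had 20 bound in D16S+ and 24 in iPSCs (20 and 21 with equal numbers), again beside 40.5% and 58.9% of all genes. The change of 13.3 points had an interval of -8.99 to 34.1. Of the 30, 24 had a higher locus score in iPSCs and 4 a lower one, and the median ratio was 2.09 over 22 genes, again beside 2.66 for all genes. Of those 22, 81.8% scored higher in iPSCs, beside 89.3% of all genes with locus peaks in both libraries.

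Dppa4, a chromatin factor that forms a pair with Dppa2, was the clearest late locus. It had a locus score of 76.5 in iPSCs and 18.7 in ESD3, and no peak in D16S+ or in any earlier library or unsuccessful fraction. Dppa2, its neighbour on chromosome 16, had 7.11 in D12S+, 60.8 in D16S+ and 119.7 in iPSCs, beside 83.3 in ESD3. These partners thus differed in where a peak was first called, D12S+ for Dppa2 and iPSCs for Dppa4.

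Lin28a, an RNA-binding protein that blocks let-7 maturation, had 14.1 in D16S+, 226.4 in iPSCs and 34.7 in ESD3 (ratio 16.0, 11.1 to 25.1). Its relative Lin28b had no peak in D16S+ and scored 13.9 in iPSCs. Jam2, a junctional adhesion molecule, stood at 86.5, 536.7 and 163.9 (6.21, 5.29 to 7.33). Alpl, the alkaline phosphatase used to stain pluripotent colonies, stood at 38.9, 226.8 and 181.0 (5.82, 4.65 to 7.62). Lin28a and Jam2 thus scored far above ESD3 in iPSCs and Alpl near it, without a background ratio for these libraries.

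Jarid2, a cofactor of Polycomb repressive complex 2, stood at 274.7 in D16S+, 1304.8 in iPSCs and 486.9 in ESD3 (ratio 4.75, 4.34 to 5.21). Dnmt3l, the catalytically inactive partner of the de novo DNA methyltransferases, stood at 40.3 and 155.7 (3.86, 3.06 to 5.01) and had no peak in ESD3. Cdh1, which encodes E-cadherin, stood at 275.8, 755.1 and 555.9 (2.74, 2.49 to 3.01), close to the background ratio. Epcam, Tdh, Zscan10 and Nodal had ratios of 2.21, 2.22, 2.23 and 2.21.

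Several late effectors were level between D16S+ and iPSCs, below the background ratio. Tdgf1 (Cripto), a co-receptor of Nodal, stood at 129.3 and 115.1 with a ratio of 0.89 (0.76 to 1.05), and at 204.0 in ESD3. Fgf4, the growth factor that drives exit from the naive state, stood at 83.5 and 85.9 (1.03, 0.85 to 1.24). L1td1, an RNA-binding protein derived from a LINE-1 element, stood at 164.5 in both (1.00, 0.87 to 1.15), and Gdf3 at 61.1 and 63.0 (1.03, 0.82 to 1.29). Utf1, a chromatin factor of stem cells, stood at 32.8 and 37.2 (1.13, 0.83 to 1.54).

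Lefty1, an inhibitor of Nodal, was lower in iPSCs, at 21.3 and 7.77 (ratio 0.36, 0.22 to 0.59), and stood at 28.4 in ESD3. Dppa5a stood at 71 and 58.1 (0.82, 0.66 to 1.02), and both Dppa5a and Dppa3 counted as bound only in iPSCs because the midpoint of their D16S+ peak was assigned to another gene. Fgf17 and Tcl1 had no D16S+ peak and scored 60.9 and 29.4 in iPSCs, of which Fgf17 also had 76.4 in ESD3 and Tcl1 none. Foxd3 had a single weak score of 4.98 in iPSCs and none in D16S+ or ESD3. Eras and Fut4 had no peak in D16S+ or iPSCs. Tex19.1 had a peak in these libraries alone, at 9.6 and 13.6 (1.42, 0.82 to 2.56), and Lefty2 had none in D16S+, 5.35 in iPSCs and 35.4 in ESD3. Fbxo15, an early reporter gene of reprogramming, stood at 120.5, 181.8 and 73.3 (1.51, 1.297 to 1.757) in D16S+, iPSCs and ESD3.

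These locus scores depend on weakly enriched tags. With peaks restricted to those at 4 times the input or more, 17 of the 51 naive and late genes, each beyond counting error before, went from higher to lower in iPSCs, among them Klf5, Esrrb, Sall4, Lin28a, Jarid2 and Cdh1, because this limit removed more of their iPSC score than of their D16S+ score. When the input tags were subtracted from each peak no gene beyond counting error went the other way, with ratios of 17.9 for Klf5, 8.60 for Zfp42, 2.79 for Esrrb and 13.6 for Lin28a. When equal numbers of peaks were ranked by score per kilobase, the scores of Esrrb, Tfcp2l1, Stat3, Dnmt3l, Epcam and Alpl were lower in iPSCs than in D16S+.

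**Figure D4:**
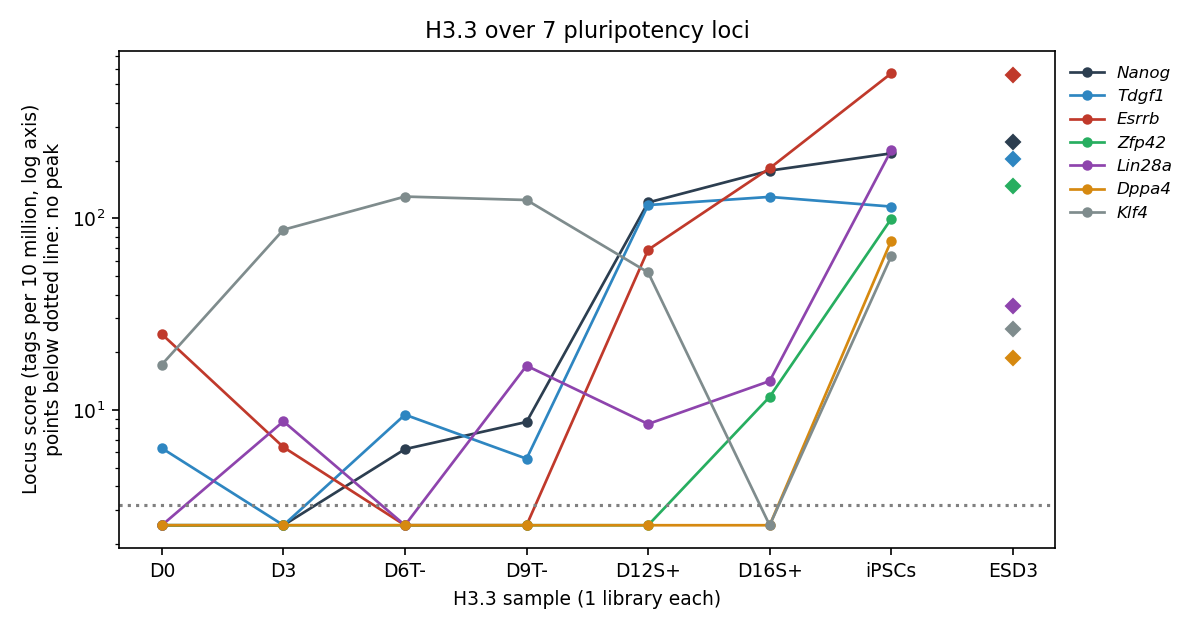
Locus scores (tags per 10 M, log axis) of 7 pluripotency loci in D0, D3, the fractions of the successful route and iPSCs (circles joined by lines) and in ESD3 (diamonds), 1 library each. Points below the dotted line had no peak. Nanog and Tdgf1 are near their iPSC level in D16S+, Zfp42 first has a peak in D16S+ and Dppa4 in iPSCs, and Klf4 lacks a peak in D16S+ alone.

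The other lists were read by the same counts, beside the 40.5% of all genes bound in D16S+ and the 58.9% in iPSCs (40.8% with equal numbers). Of 35 housekeeping genes, 29 were bound in D16S+ and 33 in iPSCs, 28 with equal numbers, and the median locus ratio was 1.20 (32 genes), with 21 higher and 13 lower. Of 14 formative and primed genes, 9 and 10 were bound, 5 in iPSCs with equal numbers, with a median ratio of 1.17 (9 genes). The Polycomb list lay at the other end, with 16 and 17 of 19 bound (14 in iPSCs with equal numbers, fewer than in D16S+), a higher locus score for 18 and a median ratio of 4.57 (15 genes). Those lists bracketed the 2.66 of all genes. Among loci with peaks in both libraries, 59.4% (housekeeping), 66.7% (formative and primed) and 100.0% (Polycomb) scored higher in iPSCs, beside 89.3% of all genes.

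The genes of H3.3 and its chaperones had 7 of 11 bound in D16S+ and 11 in iPSCs (8 with equal numbers), shares of 63.6% and 100.0% beside 40.5% and 58.9% of all genes, with a median ratio of 3.34 (8 genes). D0 fibroblasts also had 11 of them bound, and 9 with equal numbers. Hira, the histone chaperone that deposits H3.3 at active chromatin, had 143.5 in D9T-, 39.5 in D12S+, no peak in D16S+, 131.7 in iPSCs and 6.48 in ESD3. Dek had no D16S+ peak and 71.9 in iPSCs, and Asf1b, which hands H3 to other chaperones, stood at 9.07 and 61.3 (6.76, 4.13 to 11.8). Ubn1, a subunit of the HIRA complex, had 27.3 in D12S+, none in D16S+ and 32.7 in iPSCs. The Hira, Dek and Ubn1 loci had thus all been called on the route before D16S+.

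All 15 genes of DNA methylation and TET enzymes were bound in iPSCs and 12 in D16S+ (12 in iPSCs with equal numbers). D0 fibroblasts also had all 15 bound, and 10 with equal numbers. All 15 had a higher locus score in iPSCs than in D16S+. Among the 12 with locus peaks in both libraries 100.0% did, beside 89.3% of all such genes. Tdg, the glycosylase that removes oxidised methylcytosine, had 23.3 in D12S+, none in D16S+ and 69.2 in iPSCs. Of 18 BAF remodeler genes, 14 and 18 were bound (15 in iPSCs with equal numbers), beside 16 in D0 (15 with equal numbers). Smarcd1 stood at 39.8 and 134.5 and Pbrm1 at 13.9 and 64.7. Of 16 genes of retroelement silencing, 16 were bound in D16S+ and 14 in iPSCs. Trim28, the corepressor of zinc-finger proteins, counted as bound only in D16S+ by the midpoint rule although its locus score was 213.4 there and 363.5 in iPSCs.

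Of 15 genes of the 2-cell and telomere list, 9 had a higher locus score in iPSCs. Among those with locus peaks in both libraries 71.4% did, beside 89.3% of all such genes. Terf2, a telomere-binding protein, stood at 131.9 in D0, 34.4 in D16S+ and 158.1 in iPSCs (ratio 4.60, 3.58 to 6.09), and Rtel1, a telomere helicase, and Tert, the telomerase catalytic subunit, had no peak in D16S+ and scored 77.4 and 21.5 in iPSCs. Of 27 germline genes, 9 and 14 were bound (8 in iPSCs with equal numbers), beside 13 in D0 (5 with equal numbers). Dpep3, a dipeptidase gene, scored 63.6 in iPSCs and 12.7 in ESD3 and had no peak in the other 10 libraries. Gtsf1, a factor of the piRNA pathway, had 14.8 in D6T-, none in D9T-, D12S+ or D16S+, 37.8 in iPSCs and 8.33 in ESD3.

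Of 48 fibroblast and mesenchymal genes, 15 were bound in D16S+ and 20 in iPSCs, but 8 in iPSCs with equal numbers, so that the direction depended on the number of peaks. D0 fibroblasts had 43 of them. The scores of those bound only in iPSCs were far below the fibroblast level: Col1a1, the main fibrillar collagen, had 581.5 in D0, none in D16S+ and 30.0 in iPSCs, and Pdgfrb had 411.0, none and 17.5. Of 34 epithelial genes, 27 had a higher locus score in iPSCs. Among those with locus peaks in both libraries 88.9% did, beside 89.3% of all such genes. Cldn4, a tight-junction claudin, stood at 105.1 in D12S+, 16.3 in D16S+, 230.2 in iPSCs and 201.0 in ESD3. Of 28 imprinted genes, 13 and 20 were bound (46.4% and 71.4%, beside 40.5% and 58.9% of all genes), and 13 in iPSCs with equal numbers. D0 fibroblasts had 19 of them bound, and 12 with equal numbers.

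In the lists for other lineages, the genes bound in iPSCs were 7 of 12 (trophectoderm), 8 of 14 (primitive endoderm), 9 of 18 (neural and mesodermal) and 13 of 20 (hematopoietic), beside 58.9% of all genes. The trophectoderm regulator Cdx2 had no peak in D16S+ and 42.8 in iPSCs, beside 34.9 in ESD3, and the endoderm regulator Gata4 had none and 15.6, beside 38.2. The receptor gene Kit, of germ and blood cells, had none and 46.7, beside 97.2. Of 12 trophectoderm genes 3 were bound only in iPSCs, of 14 primitive endoderm genes 4, of 18 neural and mesodermal regulators 4 and of 20 hematopoietic genes 6, beside 21.3% of all genes. With equal numbers these counts were 2, 2, 3 and 2, beside 9.85%. Of 31 genes of LIF, Wnt, FGF and BMP signalling 6 were bound only in iPSCs, among them Il6st, the gp130 subunit of the LIF receptor, with 62.5 in iPSCs and no peak in D16S+.

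**Figure D5:**
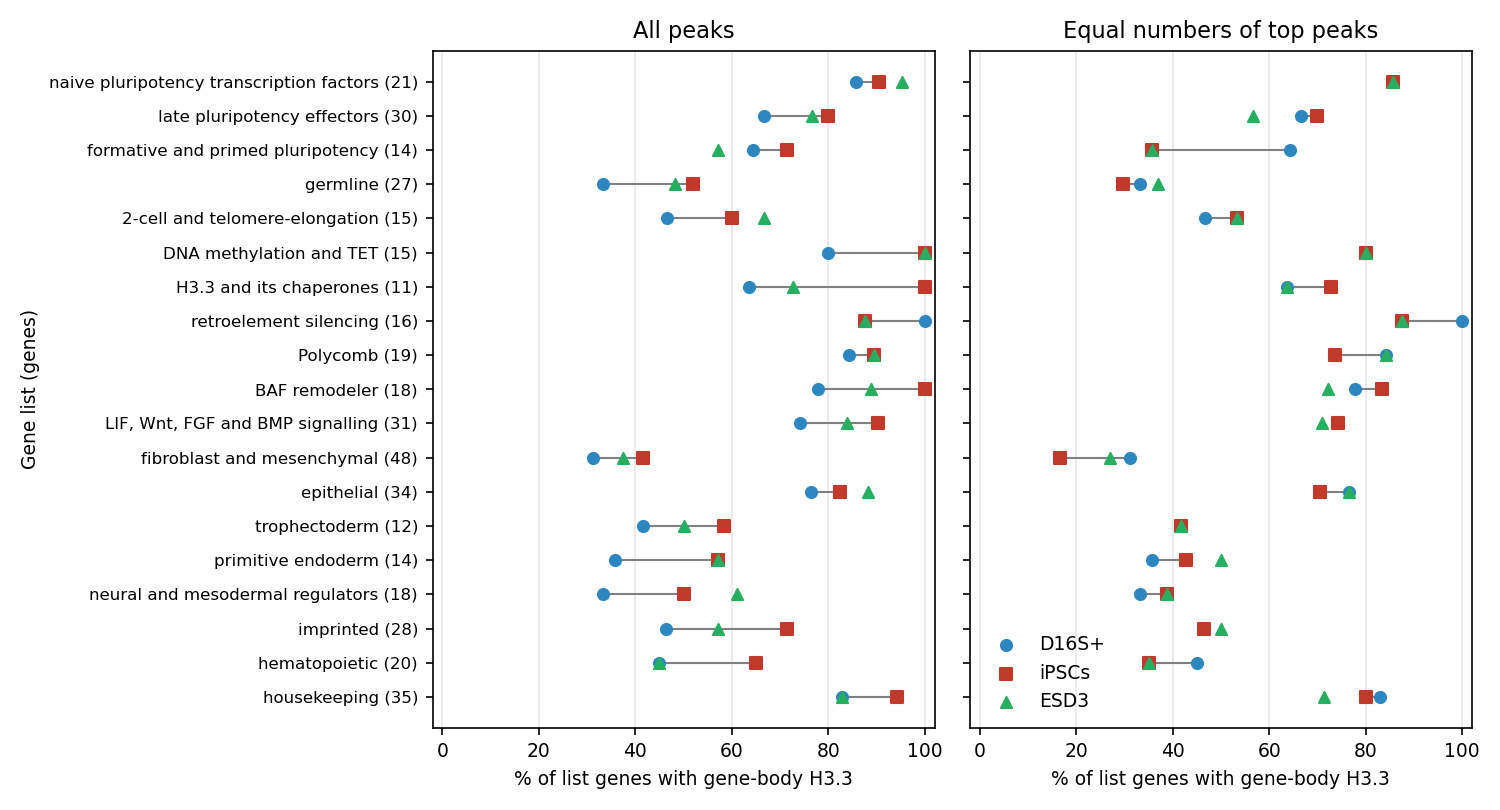
Percent of the genes of each list with gene-body H3.3 in D16S+ (circles), iPSCs (squares) and ESD3 (triangles), 1 library each, for all peaks (left) and equal numbers of top peaks (right). With all peaks the iPSC share is above the D16S+ share in every list but retroelement silencing, and with equal numbers the fibroblast list lies lower in iPSCs (8 of 48 against 15) while the naive list is level at 18 of 21.

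Among all genes bound only in iPSCs with no D16S+ peak within 1 kb, the largest summed score, 432.8, was that of Cdh4, which encodes the adhesion protein R-cadherin. It came from 23 intronic peaks covering 36.1 kb. The summed score of peaks assigned to Cdh4 was 48.4 in ESD3 and 0 in all other lists of reprogramming cells, although D12S+ had a score of 6.66 over the locus, and its promoter carried H3K4me3 in iPSCs but not in D16S+. The list of 10 went on with Kctd16, Cnnm2, Mad1l1, Basp1, Gm6635, Fbln1, Naa35, Slc15a4 and Arhgap8, at 166.7 to 275.3. For Kctd16 the input density was 9.30 times the median, and 12 peaks each of Gm6635 and Slc15a4 lay more than 1 kb outside the gene, so that these 3 are uncertain.

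The others had mostly been bound before. Basp1, a membrane-attached signalling protein, had 397.0 in D0 and 296.9 in D3, none in D9T-, D12S+ or D16S+, 227.8 in iPSCs and 29.1 in ESD3. Fbln1, an extracellular matrix protein, had 147.7 in D0, none in D12S+ or D16S+, 183.9 in iPSCs and 136.0 in ESD3. Cnnm2, a magnesium transporter, had 55.3 in D0, 27.1 in D12S+, none in D16S+ and 246.8 in iPSCs. Mad1l1, a spindle checkpoint protein, had 84.6 in D12S+, none in D16S+ and 242.7 in iPSCs.

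Genes bound only in D16S+ with no iPSC peak within 1 kb had lower scores, at most 52.8. Slc14a2, Heatr7b1 and 9130404H23Rik, 3 of the 10 with the largest, had inputs 9.14, 4.58 and 8.36 times the median. Among the others, App, the amyloid precursor protein, had 506.6 in D0, 55.5 in D12S+, 34.2 in D16S+ and none in iPSCs, and the antiviral Parp12 had 535.3 in D9T-, 61.8 in D12S+, 46.7 in D16S+ and none in iPSCs. Both were higher in the unsuccessful D16S- fraction, at 355.5 and 282.4. Ube3a, a ubiquitin ligase, had 137.1 in D9T-, 16.0 in D12S+, 29.6 in D16S+ and none in iPSCs. Rpl22l1, H2-D1, Trnt1 and Slc25a5 completed the list at 26.4 to 48.0. The 1 D16S+ peak assigned to H2-D1 lay more than 1 kb outside the gene, with a D16S+ locus score of 0, so that H2-D1 is uncertain. Of the 6 D16S+ peaks of Parp12, 3 lay as far outside, and its D16S+ locus score was 24.8.

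Among genes bound in both, the largest difference downward that also held over the whole locus was that of Bhlhe40, a clock and stress repressor, with 123.2 in D16S+, 10.1 in iPSCs and 49.1 in ESD3. For 3110070M22Rik, Rplp1, Slc25a11 and Jak3 the locus ratio was above 1, at 6.43, 1.26, 1.68 and 1.10, so that their lower assigned score came from peaks given to a neighbour. The largest differences upward were those of 2210408I21Rik, Dag1, Slc38a4, Gm13145 and Fcgr3. Slc38a4, an amino acid transporter, had 155.7 in D0, 6.4 in D16S+ and 296.2 in iPSCs by assigned peaks, and Dag1, the dystroglycan gene, had 6.4 and 303.2, or 4.52 times over the whole locus. The score of 2210408I21Rik came from 1 intronic peak of 2382.0 whose input was 504.3 times the median, and Gm13145 also had a raised input (3.82 times).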

How the data were processed

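H3.3, H3K4me3 and H3K36me3 peaks came from ChIP-Seq of 1 library per group. Per the submitters' processing notes and the methods, reads were mapped to mm9 with STAR, reads at several loci were dropped, and peaks were called with HOMER in histone style, each library against its own or a matched input (versions not given in the sources used here). The signal in the deposited lists is the normalised tag count, scaled by the authors to 10 M tags per library. The deposited fold over input is a ratio of tags to scaled input tags, at least 2 for H3.3 and 4 for the other marks. The deposited p-value is a Poisson p over input, at most 0.0001, computed by the authors and not adjusted.

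Peaks on placed chromosomes were assigned here with GENCODE vM1 on the same build, by midpoint, to promoter (1000 bp upstream to 100 bp downstream of a start site), TTS, exon, intron or intergenic sequence, and to the nearest of 22359 protein-coding genes. Input density is input tags per base over the median of the list. Shares carry Wilson and their differences Newcombe intervals, and locus ratios carry a conditional binomial interval. Calculations used Python 3.11.15, numpy 2.4.6, pandas 2.3.3 and scipy 1.17.1 and were tested on simulated lists. No test was made between single libraries. The members and the 19 gene lists (426 of 433 genes matched) were chosen with earlier results of these data known. Named genes were all naive and late pluripotency genes, the 10 highest-scoring genes bound only in iPSCs (also with equal numbers) or only in D16S+ with no peak of the other library within 1 kb, the 5 largest differences each way among genes bound in both with a summed score of at least 20, and the members of other lists that changed class and scored highest. Genes given as marker examples or for a locus that moved without changing class were chosen after their values were seen. The locus values of 1 naive factor and the sequence of 1 promoter are not reported here.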

Additional observations from a re-analysis of the deposited data

Results flagged for a closer look

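The input libraries, which were not analysed on their own, held a signal over Pou5f1. The input density over its H3.3 peaks was 36.01 times the median of the list in D16S+ and 28.2 times in iPSCs, above the 1.23 times of ESD3, which received no factors. Pou5f1 had no H3.3 peak in D0, D3 or D6T-. In D9T-, D12S+, D12S- and D16S- the density was 21.5, 27.6, 18.0 and 20.8 times the median. The source of these input tags was not tested. Peaks with an input above 3 times the median made up 0.308% of iPSC-only and 0.617% of shared peaks.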

How the results depend on the processing

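No paired analysis was possible because each group had 1 library, and no replicate could be left out. Autosomes alone moved no main count or share beyond its limit. Assignment to the gene that holds the midpoint lowered the genes bound in D16S+ from 18 to 13 of 21 naive factors, with a change to iPSCs of 19.0 points (-8.15 to 43.0), and from 23 to 18 of 31 signalling genes. With equal numbers of top peaks the iPSC-only share was 53.5%, the difference in the ESD3 share -31.4 points, the share called earlier 52.9%, the H3K4me3 difference -14.7 and the H3K36me3 difference -4.02, genes bound only in iPSCs numbered 2203, the octamer difference was -0.259, and the change in bound genes was -14.6 points for the fibroblast and -2.86 for the housekeeping list. Ranked by score per kilobase, these were 60.2%, -38.4, 40.8%, -22.1, -7.77 and 2299, with an intergenic difference of -3.79, list changes of -4.76 (naive), -10.4 (fibroblast) and -8.57 (housekeeping), and locus differences of -33.7 for Esrrb, -41.1 for Tfcp2l1, -18.0 for Stat3, -40.3 for Dnmt3l, -36.6 for Epcam and -28.1 for Alpl. With at least 0.5 of the iPSC peak covered, the iPSC-only share was 90.1%, the ESD3 difference -24.5, the share called earlier 44.2%, the intergenic difference -11.1, the H3K4me3 difference -6.01, the H3K36me3 difference 0.734, and the Klf4 and Esrrb motif differences 0.999 and 0.165. Among peaks at 4 times the input or more the same 6 values were 85.1%, -28.3, 35.0%, -14.2, -11.7 and -1.66, genes bound only in iPSCs numbered 2604, the octamer, Sox2 and Klf4 motif differences were -0.115, 1.36 and 1.06, and list changes were -14.3 (naive), -33.3 (late), -10.4 (fibroblast) and -22.9 (housekeeping). That limit gave locus differences of -6.40 for Klf5, -38.3 for Esrrb, -10.4 for Tfcp2l1, -26.9 for Tbx3, -20.9 for Sall4, -24.0 for Dppa2, -6.67 for Lin28a, -20.6 for Nodal, -21.3 for Dnmt3l, -53.6 for Tdh, -6.13 for Fbxo15, -12.5 for Zscan10, -20.0 for Jam2, -144.8 for Jarid2, -173.9 for Trim28, -96.1 for Cdh1 and -47.0 for Epcam. Input subtraction, chosen after seeing the data, turned no locus difference that was beyond counting error. The causes were not tested. The D16S+ list had both the lower depth (18.7 M tags against 41.2 M) and the lower share of tags in peaks (4.88% against 13.96%), and a locus without a peak there is one not detected, not one without H3.3.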
